A study of Rattus norvegicus with 4 samples.

Results

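Myosin genes of the rat crista ampullaris, the ridge of hair cells and supporting cells by which a semicircular canal senses rotation, were compared between the superficial and the basal layer of the tissue. They were chosen by name: every gene probe whose current rat symbol begins with Myo, Myh or Myl followed by a digit, or with Mylk. This gave 53 of the 33849 gene probes on the array and 38 of the 12323 genes that could be named: 17 unconventional myosin heavy chains (Myo), 11 conventional heavy chains (Myh), 7 light chains (Myl) and 3 light chain kinases (Mylk). Of the 56 protein-coding genes of these names in the current rat annotation, the other 18 had no probe named here. They were Myo1c, Myo1h, Myo3a, Myo3b, Myo5c, Myo6, Myo15a, Myo18b, Myh6, Myh13, Myh15, Myh15l1, Myl4, Myl6, Myl6bl1, Myl10, Myl12a and Mylk4, so that several myosins known from hair bundles were not analysed here.

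Myosins are motors that pull on actin filaments. Conventional myosins, class II, pair their heavy chains through a long coiled coil and assemble into filaments: the thick filaments of muscle, or the contractile bundles and junctional belts of other cells. Their essential and regulatory light chains stiffen and control the lever arm, and phosphorylation of the regulatory light chain by myosin light chain kinase and other kinases switches the smooth muscle and non-muscle forms on. Unconventional myosins do not build such filaments. They carry cargo, tether membrane or hold tension, many of them with calmodulin as their light chain, and in inner ear hair cells several of them build and maintain the actin-filled stereocilia. Myo7a, the myosin of Usher syndrome and of the shaker mouse, is the textbook example.

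The hair cell layer was captured first by laser and held hair cells of both types (I and II) along with supporting cell cytoplasm lying between these cells. The supporting cell layer, taken in a second pass, held the supporting cell bodies on the basal lamina. Capture was by morphology, hair cells being recognised by their stereociliary tuft, their outer nucleus and the calyceal nerve ending around them, so each layer is a mixture and nerve endings can be part of the first. There were 2 single-colour whole-genome arrays for each layer, 4 in all. The labels name the animal only as rat, and strain, sex, age, treatment and the number of animals are not given in the sources used here. Whether replicate arrays stand for different animals is not stated, so p-values reflect no more than how far these samples differ among themselves, which could be technical, and are too small if arrays share an animal. In such tissue, fewer cells of a type and less RNA per cell cannot be told apart.

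The median raw intensity fell between 12.0 and 26.45 over the arrays, and the scanner software called 39.7% to 48.8% of the gene probes detected, the hair cell layer arrays at the upper end. Replicate arrays correlated at r = 0.993 and 0.994 across 11059 probes detected on all 4 arrays, and arrays of different layers at 0.817 to 0.826. These are correlations across probes, which are not independent replicates. As a check on the labels, 11 of 13 tested hair cell markers were called higher in the hair cell layer (84.6%, beside 37.2% of all tested genes). None of the 13 was called higher in the supporting cell layer (28.2% of all tested genes were). The markers of supporting cells were divided, 5 of 12 each way (41.7% each, beside the same 37.2% and 28.2%).

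Intensities below are quantile-normalized raw intensities in arbitrary units. Detected means flagged good or saturated by the scanner software. A gene was tested where a probe was detected on at least 2 of the 4 arrays, at its brightest such probe. A change is a log2 difference, supporting minus hair cell layer, with its standard error from limma (n = 2 arrays per layer), and called means an adjusted p under 0.05 by limma, corrected over all 16483 tested probes by Benjamini and Hochberg's method. Where a gene was detected on neither array of a layer, its fitted change does not measure size. The fold is then stated as a minimum, taken against the lowest detected signal of each such array, or the spot's own value if higher. Undetected spots can read above that lowest signal, so the minimum is approximate. A gene undetected in a layer entered the test through the other layer alone, so that a difference was built into its selection. Levels of different genes come from different probes and are not compared.

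Myosin transcripts were detected in both layers, and most of the called differences were toward the hair cell layer. Of the 38 genes, 19 had a tested probe (63% of all named genes did). Of these 19 tested myosin genes, 9 were called different (47.4%, where 65.4% of all 7768 tested genes were called), 7 of them higher in the hair cell layer (36.8% of the tested myosins, against 37.2% of all tested genes) and 2 higher in the supporting cell layer (10.5% against 28.2%). Over all tested probes, 67.4% were called, 33.9% higher in the hair cell layer and 33.5% higher in the supporting cell layer. The share higher in the hair cell layer was therefore close to that of the array as a whole. The 7 were the unconventional Myo5a, Myo16, Myo1f and Myo15b and the muscle-type conventional Myh2, Myh11 and Myh7b. The 2 were the unconventional Myo9b and the embryonic skeletal heavy chain Myh3. In 14 of the 19 both arrays of one layer lay above both of the other, which held for 89.2% of all tested genes.

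**Figure D1:**
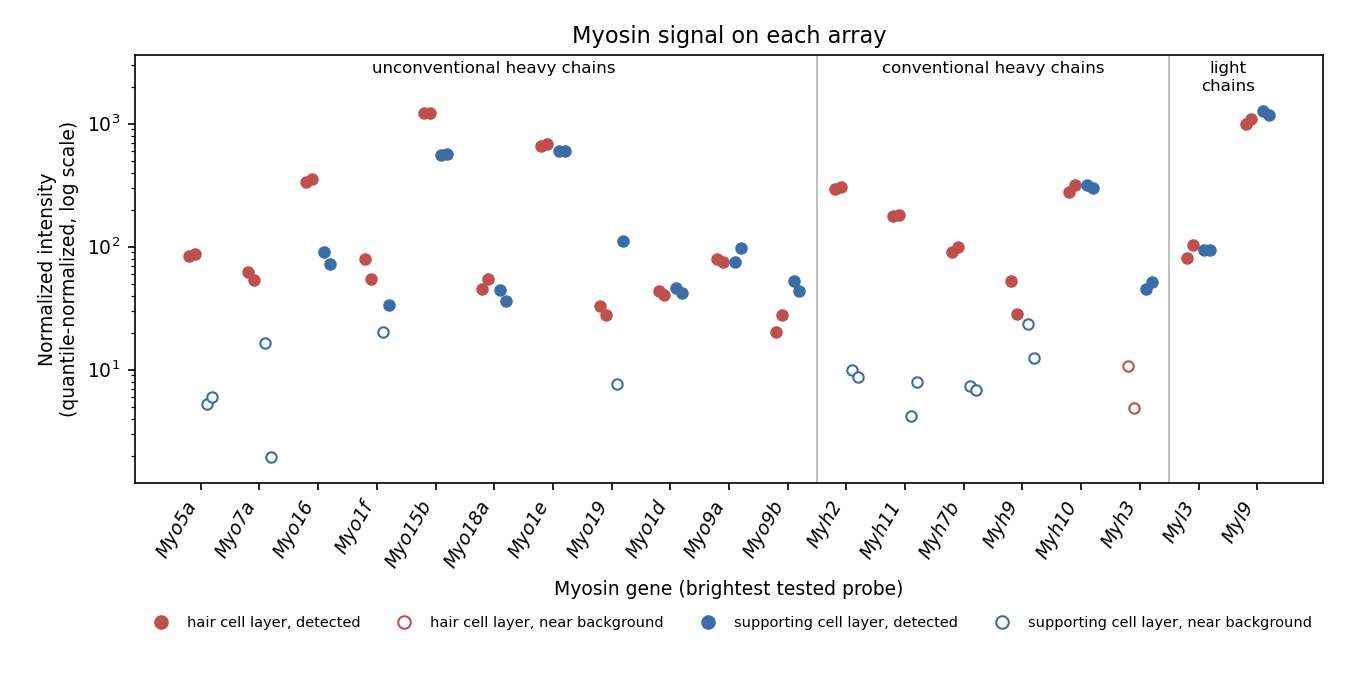
Quantile-normalized intensity (log scale, arbitrary units) of the 19 tested myosin genes on each of the 4 arrays, filled points detected and open points near background. Myo5a, Myo7a, Myh2, Myh11, Myh7b and Myh9 have filled points in the hair cell layer only, and Myh3 in the supporting cell layer only.

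The promoters of a few members are shown first, since neighbouring heavy chain genes took opposite sides and since Myo7a and Myo16 stand for the unconventional group. The windows run from 250 bases before to 50 after the annotated start, 5′ to 3′, from RefSeq on the GRCr8 build, and capitals mark matches to TATAAA on either strand. A window was found for 31 of the 38 members.
Myh3 (chr10:52268935-52269234, plus strand): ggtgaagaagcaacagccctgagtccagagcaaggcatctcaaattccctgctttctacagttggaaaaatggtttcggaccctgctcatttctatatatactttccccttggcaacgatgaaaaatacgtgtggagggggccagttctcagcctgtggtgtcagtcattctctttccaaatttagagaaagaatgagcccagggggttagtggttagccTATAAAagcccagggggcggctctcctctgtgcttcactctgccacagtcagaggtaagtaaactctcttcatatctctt
Myh2 (chr10:52355489-52355788, plus strand): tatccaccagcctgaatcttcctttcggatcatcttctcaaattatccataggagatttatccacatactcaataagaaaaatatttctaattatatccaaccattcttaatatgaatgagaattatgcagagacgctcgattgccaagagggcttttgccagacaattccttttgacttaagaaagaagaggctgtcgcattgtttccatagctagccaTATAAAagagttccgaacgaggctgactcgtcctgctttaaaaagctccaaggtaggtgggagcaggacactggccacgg
Myo7a (chr1:161818528-161818827, minus strand): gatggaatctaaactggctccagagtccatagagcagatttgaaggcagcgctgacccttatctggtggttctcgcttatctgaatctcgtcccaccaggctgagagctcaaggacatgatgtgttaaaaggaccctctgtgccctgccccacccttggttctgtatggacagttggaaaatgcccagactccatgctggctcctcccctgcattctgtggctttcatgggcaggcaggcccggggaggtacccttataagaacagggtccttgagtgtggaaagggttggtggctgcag
Myo16 (chr16:85950319-85950618, minus strand): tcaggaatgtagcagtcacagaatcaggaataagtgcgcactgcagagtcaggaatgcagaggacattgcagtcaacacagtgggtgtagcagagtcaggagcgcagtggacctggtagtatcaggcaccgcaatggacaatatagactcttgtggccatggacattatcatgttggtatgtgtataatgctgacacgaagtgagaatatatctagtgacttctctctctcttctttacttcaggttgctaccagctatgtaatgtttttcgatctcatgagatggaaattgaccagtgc
Myh3 and Myh2 lie in the cluster of skeletal muscle heavy chain genes on chromosome 10, where the windows of Myh3, Myh2, Myh1, Myh4 and Myh8 follow each other on the plus strand. In both the window held 1 match to TATAAA, beginning 30 bases before the start, and neither held CAGCTG (a match on one strand is a match on both) or a CArG box, a sequence bound by serum response factor and searched on both strands. The windows of Myo7a and Myo16 held none of these motifs. TATAAA was in 14.2% of all 33469 promoter windows of 300 bases and in 6 of the 33 windows of members (18.2%), CAGCTG in 15.1% and 6 of 33, and the CArG box in 1.64% and 3 of 33, those of Myo1e, Myl3 and Myh4. A CArG box can overlap TATAAA or contain it whole. These matches describe the letters of the windows alone.

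By the scanner flags, a larger share of the unconventional than of the conventional heavy chains was detected on every array. Of the 17 unconventional genes, 11 were detected on each hair cell layer array, and for the supporting cell layer the numbers were 7 on array 1 and 9 on array 2. Of the 11 conventional genes, 5 were detected on each hair cell layer array and 2 on each supporting cell layer array. Among all named genes, the detected shares were 63.9% and 61% for the hair cell layer and 53.5% and 53.3% for the other. Before any normalization, the raw intensity was higher on both hair cell layer arrays than on both supporting cell layer arrays in 9 of the 11 tested unconventional and 5 of the 6 tested conventional genes, as it was in 73.4% of all tested genes, the hair cell layer arrays having the higher median raw intensity. After normalization the unconventional group had 4 members called toward the hair cell layer, 1 toward the supporting cell layer and 6 not called. The conventional group had 3, 1 and 2. The shares called toward the hair cell and the supporting cell layer were 36.4% and 9.09% in the unconventional group. They were 50% and 16.7% in the conventional group, and 37.2% and 28.2% over all tested genes. The unconventional share toward the hair cell layer was thus near that of all tested genes.

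The median fitted change was -0.30 in the unconventional and -2.45 in the conventional group, and -0.10 over all tested genes. With genes undetected in a layer held at their lower limit, the medians were -0.30, -1.14 and -0.05. The gap between the groups was not tested, since 2 arrays against 2 cannot give an exact permutation p below 0.333. Among genes seen in 1 layer alone were 5 of the 6 conventional genes and 2 of the 11 unconventional ones. Without supporting cell layer replicate 2 the unconventional median was -1.13 and the conventional one -2.20. Without the filter on dim probes, which brings in genes near background, the conventional median was 0.07, and among genes detected on all 4 arrays it was also 0.07, on Myh10 alone.

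**Figure D2:**
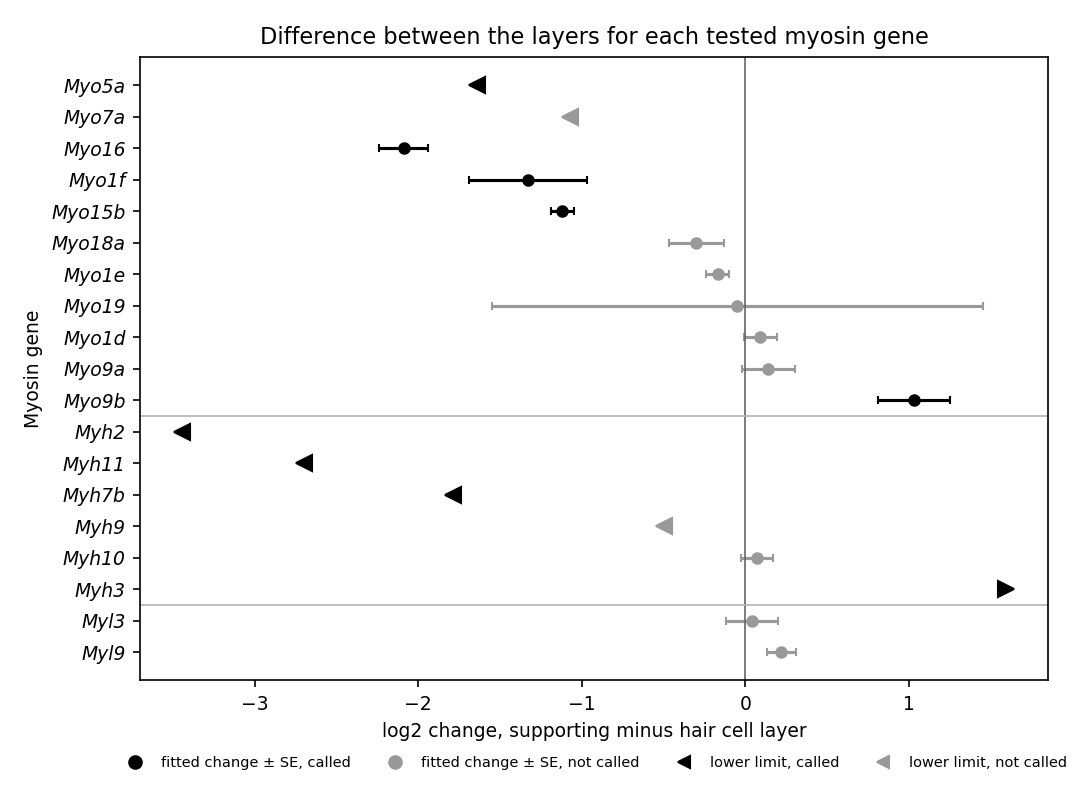
Log2 change, supporting minus hair cell layer, of the 19 tested myosin genes. Circles are fitted changes with their SE for genes detected in both layers, triangles mark the lower limit for genes undetected in 1 layer, and black symbols are called. Myo16, Myo1f and Myo15b lie left of 0, Myo9b right of it, and the other circles are grey.

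Among the unconventional myosins, the motors of hair bundles and of vesicle transport come first. Myo7a holds tension on the transduction apparatus through its link to the tip link cadherin Cdh23. Its normalized intensity was 62.3 and 53.3 in the hair cell layer against 16.4 and 1.94 in the supporting cell layer. The layers did not overlap, and neither supporting cell layer array detected it. It was higher by at least 2.10-fold in the hair cell layer by its detection limit, yet this was not called (adjusted p = 0.0828), the supporting cell layer values near background lying far apart. Leaving out supporting cell layer replicate 1 or 2 gave a fitted change of -4.89 or -1.81. A floor at the highest detection limit of the 4 arrays gave a change of -1.03 and an adjusted p of 0.00371. Both supporting cell layer values lie below that floor and become equal, so this p leaves out their spread and cannot decide the call. Over the settings tried the adjusted p ran from 2.62e-11 with the scanner software's values to 0.258 without hair cell layer replicate 1.

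The values of the hair cell marker list are given beside it. Of the 13 with a named probe, 13 were detected on each hair cell layer array and 9 on each supporting cell layer array, and their summed intensity was 9053 and 9594 against 3402 and 3252. Myo7a is itself one of the 13. The part of hair cell content in the changes of the other myosins was not tested.

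Myo5a, which moves organelles such as melanosomes and endoplasmic reticulum along actin, had intensities of 83.4 and 87.6 in the hair cell layer and 5.3 and 6.02 in the supporting cell layer. Both supporting cell layer spots were near background, and the gene was higher by at least 3.12-fold in the hair cell layer (adjusted p = 0.00115). Myo5a also carries pigment granules in melanocytes and vesicles in neurons, so the markers of those cells are given beside it. Among 6 melanocyte markers with a named probe, Tyr, Tyrp1 and Kit were detected on no array, and Mitf was higher by at least 16.5-fold in the supporting cell layer. The summed intensity of the 5 melanocyte markers with a value on every array was 47 and 51 in the hair cell layer. In the supporting cell layer it was 307 and 341, of which Mitf gave 258 and 271. Pmel, missing on 1 array and so left out of the sums, was higher in the hair cell layer (-3.73 ± 0.10, 3 arrays). It had 2693 on the usable hair cell layer array against 206 and 200 in the supporting cell layer. Of 7 neuronal markers with a named probe, the neurofilament genes Nefl and Nefm were at least 3.17-fold and 1.60-fold higher in the hair cell layer, Gap43 and Prph were called toward the supporting cell layer, while Nefh and Stmn2 were detected on no array. Of the 4 neuronal markers tested, 50% were called toward each layer, beside 37.2% and 28.2% of all tested genes. The sums of the 7 were 550 and 547 against 632 and 679, and most of each was Prph (337 and 326 against 485 and 531). The part of nerve endings in the change of Myo5a was not tested.

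Myo16, a neuronal myosin with ankyrin repeats ahead of its motor, had the largest change among the myosins detected on all 4 arrays. Its intensities were 333 and 356 in the hair cell layer and 90.1 and 72.3 in the supporting cell layer. All 4 spots were above background and the layers were far apart, with a change of -2.09 ± 0.15 (adjusted p = 0.00261). It was called under every alternative tried.

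Myo15b, a close relative of the stereocilia tip myosin Myo15a, was measured by 3 probes. The brightest gave 1210 and 1226 in the hair cell layer and 556 and 564 in the supporting cell layer, a change of -1.12 ± 0.07 (adjusted p = 0.00212). A second probe, at 725 and 691 against 419 and 382, changed by -0.82 ± 0.09 (adjusted p = 0.00586). Both probes placed it higher in the hair cell layer, without overlap between the layers. The third probe was detected on 1 array only. With the scanner software's own values the change of the brightest probe was -1.01 and not called (adjusted p = 0.063).

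Of the class I myosins, single-headed motors that link membranes to actin, 3 were tested and 1 was called (33.3%). Over all tested genes the called share was 65.4%. Myo1f, a long-tailed form known from leukocytes, had 79.6 and 54.3 in the hair cell layer and 20.4 and 33.3 in the supporting cell layer, where 1 of the 2 arrays detected it. The change was -1.33 ± 0.36 (adjusted p = 0.0429), close to the threshold. Leaving out hair cell layer replicate 1 or 2, or supporting cell layer replicate 1, ended the call (adjusted p of 0.168, 0.0938 and 0.0879), as did using no filter on dim probes (0.119). Without supporting cell layer replicate 2 the gene stayed called. Of 9 leukocyte markers with a named probe, 7 were tested: Cd68 and Aif1 were at least 1.5-fold and 6.26-fold higher toward the hair cell side, Csf1r and Cd74 were called toward the supporting cell side, while Ptprc and Lyz2 were detected on no array. For Cd68 and Csf1r the fit dropped 1 supporting cell layer array each. The share of tested leukocyte markers called toward each layer was 28.6%, beside 37.2% and 28.2% of all tested genes. The summed intensity, over the 7 with a value on every array, was 843 and 810 in the hair cell layer. In the supporting cell layer it was 589 and 603, and most of each sum was Laptm5 (475 and 440 against 358 and 395). The part of leukocytes in the change of Myo1f was not tested.

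Myo1e, the other long-tailed class I form tested, which works in endocytosis, had 653 and 687 in the hair cell layer and 596 and 596 in the supporting cell layer. The change of -0.17 ± 0.07 was small and not called (adjusted p = 0.123), although the layers did not overlap. Myo1d, a short-tailed form that takes part in left-right asymmetry, had 43.5 and 40.2 against 46.5 and 42.4, overlapping values with a change of 0.09 ± 0.10. The older name Myo1c in the array's description of one of its probes belongs to this gene, and Myo1c itself had no probe named here.

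Class IX myosins carry a GTPase-activating domain in their tail. Myo9b was the one unconventional myosin called higher in the supporting cell layer. Its intensities were 20.2 and 27.6 in the hair cell layer and 52.9 and 43.9 in the supporting cell layer, low but detected on all 4 arrays. The change was 1.03 ± 0.22 (adjusted p = 0.0247). The call ended without hair cell layer replicate 1 or supporting cell layer replicate 1 (adjusted p of 0.0754 and 0.0755), and without the filter on dim probes (0.089). Its relative Myo9a, with 79 and 74.6 against 74.4 and 96.7, overlapped between the layers and changed by 0.14 ± 0.16. The difference between the changes of Myo9a and Myo9b was not tested.

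Myo18a, a myosin of the Golgi with a PDZ domain, had 44.9 and 54.7 against 44.4 and 36.3, without overlap but not called (-0.30 ± 0.17, adjusted p = 0.198). Myo19 moves mitochondria. It was measured at 33.1 and 27.6 in the hair cell layer. For the supporting cell layer, array 1 gave 7.66, near background, and array 2 gave 111, detected. One of them lay below and the other above both hair cell layer values, and the change was -0.05 ± 1.5. Without replicate 1 of the supporting cell layer it would be 1.87 (adjusted p = 0.0108), without replicate 2 it would be -1.98 (adjusted p = 0.0101), so no direction is given. Among the untested unconventional genes, Myo1a, Myo1g, Myo5b, Myo7b and Myo10 were detected on no array.

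Among the conventional myosins, the 4 tested muscle-type heavy chains were each detected in 1 layer alone and each called. Over all tested genes the called share was 65.4%. Each of the 4 entered the test through that layer alone, so a difference was built into its selection. Its p-value also depends on how closely the near-background values of the other layer happened to lie. Being detected in 1 layer alone held for 14.1% of all tested genes on the hair cell side and 2.83% on the supporting cell side. Myh2, the heavy chain of fast oxidative skeletal fibres, had 295 and 305 in the hair cell layer and 9.93 and 8.79 in the supporting cell layer. The layers stood far apart, at least 10.9-fold (adjusted p = 0.00115). On the raw scale the same spots read 389.3 and 353.3 against 8.439 and 7.548. Myh7b, a slow-type heavy chain also transcribed outside muscle, had 90.1 and 99.5 against 7.43 and 6.87. It was higher by at least 3.45-fold in the hair cell layer (adjusted p = 0.00115).

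Myh11, the smooth muscle heavy chain, had 176 and 180 in the hair cell layer and 4.19 and 7.98 in the supporting cell layer. It was higher by at least 6.50-fold in the hair cell layer (adjusted p = 0.00291). Its other probe, annotated to the same accession, read 4.74, 9.32, 6.14 and 6.92 on the 4 arrays and was detected on none, so the result rests on 1 of 2 probes. Myh3, the embryonic skeletal heavy chain, went the other way, with 10.8 and 4.84 in the hair cell layer and 45.2 and 52 in the supporting cell layer. It was higher by at least 3.02-fold in the supporting cell layer (adjusted p = 0.0151). The call ended without supporting cell layer replicate 2 (adjusted p = 0.0536) and without the filter on dim probes (0.0553).

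Most other sarcomere genes were not detected. Of 19 skeletal muscle markers, all with a named probe, 13 were detected on no array: Acta1, Actn2, Actn3, Ckm, Tnnt1, Tnnt3, Tnni1, Tnni2, Ttn, Neb, Mb, Ryr1 and Myog. The fast skeletal heavy chain genes Myh1 and Myh4, the neonatal Myh8, the slow Myh7 and the light chains Myl1 and Myl11 were likewise detected on none, 1 spot of Myh8 being left out as contaminated. Of the 6 markers tested, 4 were called higher in the hair cell layer (66.7%, beside 37.2% of all tested genes). They were the calcium-binding troponins Tnnc1 (-2.55 ± 0.19) and Tnnc2 (-2.93 ± 0.11) and the myosin-binding proteins Mybpc1 (-0.68 ± 0.11) and Mybpc2 (at least 2.08-fold). The summed intensity of the 19 was 2270 and 2331 in the hair cell layer and 876 and 886 in the supporting cell layer. The part of muscle tissue in the change of Myh2 was not tested.

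Smooth muscle was read the same way beside Myh11. Of 9 smooth muscle and pericyte markers with a named probe, Acta2, Cnn1, Tagln, Smtn and Pdgfrb were detected on no array. Lmod1 was higher in the hair cell layer, at least 2.55-fold, while Rgs5, a pericyte gene, was higher by at least 4.33-fold in the supporting cell layer. Cspg4 and Notch3 were not called. Of the 4 tested, 25% were thus called toward each layer, beside 37.2% and 28.2% of all tested genes. The sums were 629 and 651 in the hair cell layer against 655 and 688, and most of each was Notch3 (406 and 457 against 455 and 499). The part of smooth muscle in the change of Myh11 was not tested.

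Markers of endothelium and of Schwann cells were detected in both layers. Of 6 tested endothelial markers, 5 were called toward the supporting cell layer and 1, Vwf, toward the hair cell layer (83.3% and 16.7%, beside 28.2% and 37.2% of all tested genes). Over the 6 markers with a value on every array, the sums were 440 and 485 against 1330 and 1339. These leave out Cldn5 and include the undetected Kdr, and Vwf gave 273 and 314 of the hair cell layer sums. Schwann cell markers, 5 tested, had 2 called toward the hair cell layer and 1 toward the supporting cell layer. These shares were 40% and 20%, beside the same 37.2% and 28.2%. The Schwann cell sums were 3022 and 3056 against 3385 and 3328. The part of endothelium and Schwann cells in the changes of Myh3 and Myo9b, which lay on the same side as most endothelial genes, was not tested.

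The non-muscle heavy chains, which form contractile bundles in nearly every cell, were not called. Myh10 had 279 and 315 in the hair cell layer and 320 and 302 in the supporting cell layer. The layers overlapped and the change was 0.07 ± 0.10 (adjusted p = 0.569). A second Myh10 probe with the same accession read between 5.27 and 8.61 and was detected on no array. Myh9 was represented by a probe at 52.7 and 28.5 against 23.5 and 12.5, detected in the hair cell layer only and not called (adjusted p = 0.118, lower limit 1.41-fold). That probe takes its name from the platform annotation alone, since its gene identifier is not in the current table and the array describes it as a short hormone-regulated sequence. The other 2 Myh9 probes, annotated to its RefSeq transcript, were detected on no array. Median scaling or the scanner software's values made the change of this probe a call (adjusted p of 0.00908 and 0.0434). Myh14 was detected on no array.

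Neither tested light chain was called. Myl9, the regulatory light chain of smooth muscle and non-muscle myosin, had 993 and 1084 in the hair cell layer and 1260 and 1166 in the supporting cell layer. The layers did not overlap, but the change of 0.22 ± 0.09 did not pass the test (adjusted p = 0.114). Myl3, an essential light chain of slow and ventricular muscle, had 80.4 and 103 against 94.6 and 93.4 at one probe, overlapping values with a change of 0.04 ± 0.16, and its other probe was detected on no array. Myl2 and the kinase Mylk3 were each detected on 1 hair cell layer array only. Myl12b, Myl7 and the kinase genes Mylk (3 probes) and Mylk2 (1 spot contaminated) were detected on no array.

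Members with several probes often had just 1 that was detected. Of the 9 tested members with more than 1 probe, 8 had a single tested probe, Myo15b being the exception, where 58.9% of the 2894 such genes on the whole array did. The 19 untested members had near-background spots at normalized intensities from -5.55 to 31.1. Such signals set no level, and the 19 were not tested for a difference in the reported fit. Without the filter on dim probes 1 of them was called.

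Partners of these motors were read from lists of known regulators and cargo genes. The light chain phosphorylation list was divided. Of its 15 tested genes, 4 were called toward the hair cell layer, 5 toward the supporting cell layer and 6 not called, with a median change of 0.13. The called share of 60% was near the 65.4% of all tested genes. Among the 4 were the kinase Dapk3 (-0.35 ± 0.08) and the calmodulin genes Calm2 (-0.54 ± 0.08) and Calm3 (-0.30 ± 0.07), whose protein activates myosin light chain kinase and serves unconventional myosins as a light chain. Calm2 had 6525 and 6109 in the hair cell layer against 4350 and 4347 in the supporting cell layer, without overlap (adjusted p = 0.0105). On the supporting cell side were Ppp1r14a, an inhibitor of myosin phosphatase, at 23 and 31.2 against 123 and 137 (2.28 ± 0.19, adjusted p = 0.00365), and the kinases Cdc42bpa (0.66 ± 0.11), Rock2 (0.52 ± 0.11) and Dapk2 (0.47 ± 0.12) with the GTPase Rhob (0.39 ± 0.07). The phosphatase subunits Ppp1cb (-0.07 ± 0.11) and Ppp1r12a (0.10 ± 0.07) were not called.

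**Figure D3:**
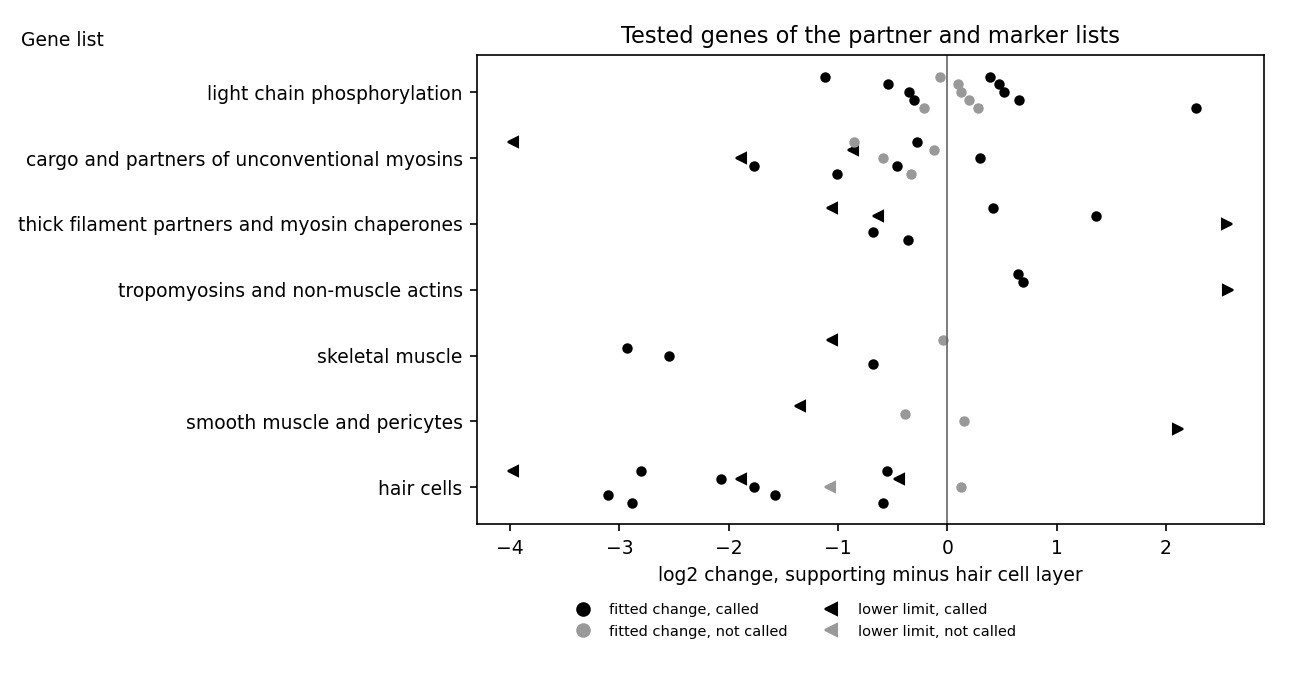
Log2 change, supporting minus hair cell layer, of the tested genes in 4 lists of myosin partners and 3 marker lists, circles for genes detected in both layers, triangles at the lower limit for genes undetected in 1 layer, black where called. Genes whose limit is below 1-fold are not drawn. The tropomyosins lie right of 0, and the cargo and partner list lies mostly left of it.

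Cargo adaptors and partners of unconventional myosins lay mainly on the hair cell side. Of 13 tested, 8 were called higher in the hair cell layer, 1 higher in the supporting cell layer and 4 not called (61.5% and 7.69%, beside 37.2% and 28.2% of all tested genes). The median change was -0.84, or -0.59 with undetected genes at their limit. Cdh23, which Myo7a is tied to through other Usher proteins, was at least 15.7-fold higher, and the actin bundler Espn at least 3.69-fold. Twf2, an actin-capping partner of Myo7a, was at least 1.82-fold higher. Cib2, a member of the transduction complex, changed by -1.77 ± 0.11 and Cib1 by -0.46 ± 0.07. The dynein light chain gene Dynll1 changed by -1.01 ± 0.10. The related Dynll2 overlapped between the layers and was not called (-0.12 ± 0.12, adjusted p = 0.429). Optn, an adaptor of the reverse motor Myo6, changed by -0.28 ± 0.08, and Gipc1, another one, was called without a usable limit. Rab11a, the GTPase of recycling vesicles moved by Myo5b, was the exception at 0.30 ± 0.09, close to the threshold (adjusted p = 0.0495). Mlph, the link between Myo5a and melanosomes, was not called (-0.85 ± 0.33, adjusted p = 0.0983), and its partner Rab27a was detected on no array. Cdh23, Espn and Cib2 are also in the hair cell list.

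Thick filament partners and chaperones were called in all 8 tested cases, 5 toward the hair cell layer and 3 toward the supporting cell layer (62.5% and 37.5%, beside 37.2% and 28.2% of all tested genes). Over all tested genes 65.4% were called. Of the 8, 4 were undetected in 1 layer, and Svil and Myom1 were close to the threshold (adjusted p of 0.0495 and 0.0477 by limma). The general myosin chaperone Unc45a changed by -0.36 ± 0.08, and Llgl2, a polarity protein that binds non-muscle myosin, was higher by at least 1.55-fold in the hair cell layer. The 2 myosin-binding proteins named above were also called toward the hair cell layer, and Smyd1 was called without a usable limit. Svil, which ties myosin to membranes, was higher by at least 5.88-fold in the supporting cell layer, S100a4, a calcium-binding protein that takes non-muscle filaments apart, changed by 1.36 ± 0.11 and Myom1 by 0.42 ± 0.12. The muscle chaperone Unc45b was detected on no array. The 3 tested tropomyosins, which decide where myosin can bind actin, were all called higher in the supporting cell layer (100%, beside 28.2% of all tested genes). Tpm3 changed by 0.69 ± 0.08, Tpm1 by 0.65 ± 0.16, and Tpm2 was at least 5.95-fold higher. The fourth, Tpm4, was detected on 1 array only.

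**Figure D4:**
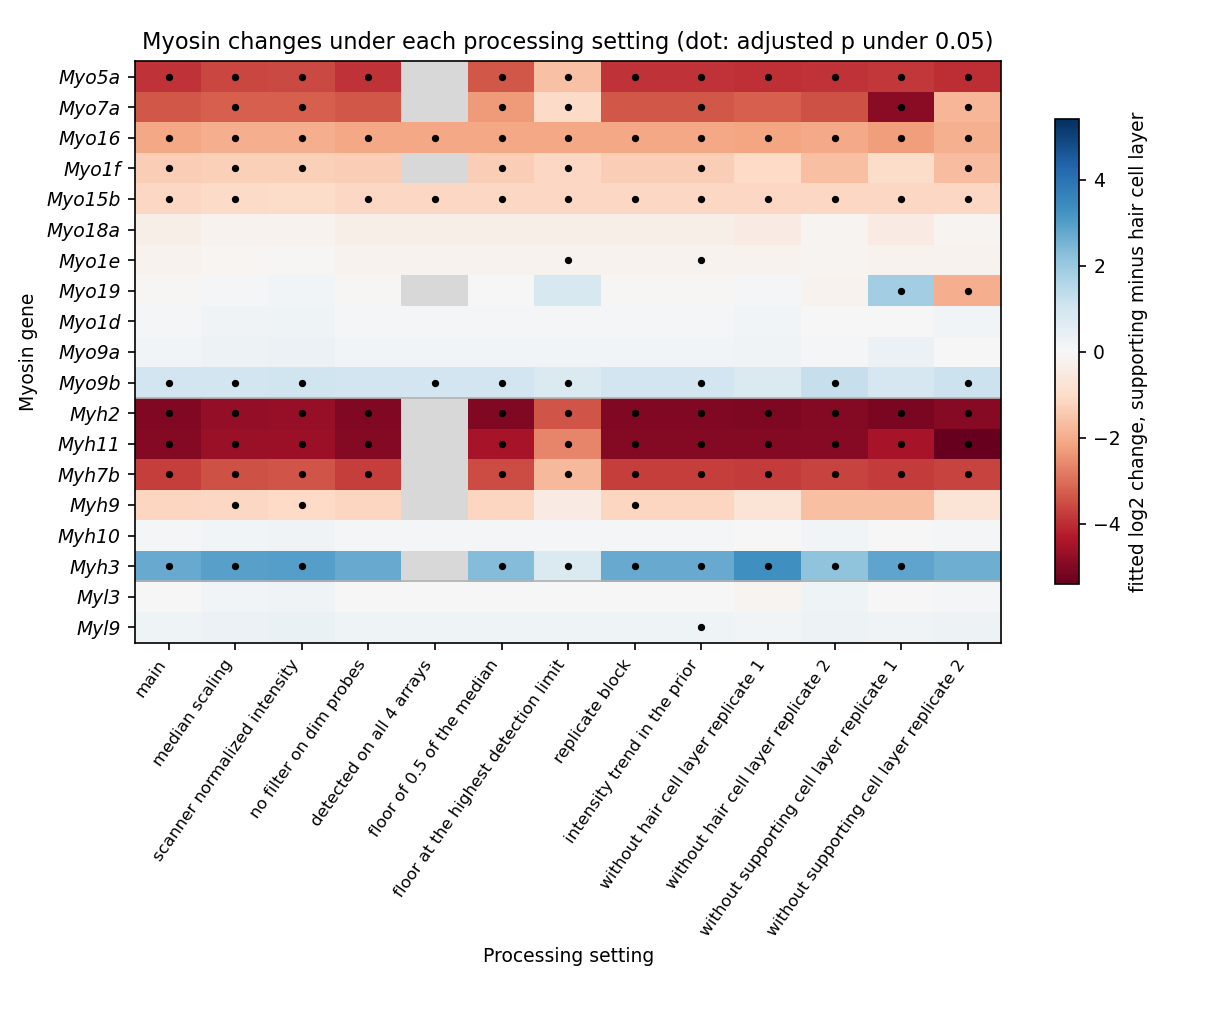
Fitted log2 change of the 19 tested myosin genes (rows) under the reported fit and 12 other settings (columns), red for higher in the hair cell layer and blue for higher in the supporting cell layer. Dots mark an adjusted p under 0.05, and grey cells were not tested. Myo16 carries a dot in every column, while Myo1e, Myo1f, Myo7a, Myo9b, Myo15b, Myo19, Myh3, Myh9 and Myl9 gain or lose theirs.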

How the data were processed

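Per the labels' protocols, RNA of laser-captured tissue was extracted with a kit for small samples and its polyadenylated part amplified linearly into biotin-labelled cRNA. Per the file headers, spots were read by CodeLink Expression Analysis, version 4.0.0.23520. In the deposited scanner files each spot has a quality flag, a raw intensity with background removed (so that values under 0 occur) and a normalized intensity in units of that array's median. The same normalized intensity is in the deposited series table, but its last column, supporting cell layer replicate 2, was shifted by rows (3 of 35125 equal as aligned, 35029 after a shift of 2 rows, within 1e-06). The table therefore served only to tie row numbers to probes through the other 3 columns.

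Probes were named by the platform's gene identifiers, updated to GRCr8 RefSeq symbols, or by RefSeq accession. Of 33849 gene probes 16915 had a name, 22 of them by platform symbol alone. The 165 that matched several genes were not named. Contaminated, irregular and failed spots were left out, saturated ones kept. Raw intensities were quantile-normalized, floored at 0.1 times their median, put on the log2 scale in R 4.3.3, and tested with limma 3.58.1 (prior 1.31 degrees of freedom, no block, two-sided). The lowest detected intensities, 13.9 and 18.5 for the hair cell layer, 26.6 and 28.3 for the supporting cell layer, set the fold limits. An undetected spot that read higher was used at its own value. The fit was tested on simulated data. The number of arrays limits the precision.

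Across the array 11112 of 16483 tested probes (67.4%) were called. Members, lists and tests were chosen with earlier results of these data known. Values were printed for every tested member, which includes each called one. Well known myosins without a tested probe, such as Myo7b, Myo10, Myh14 and Mylk, were named only. A few genes are not reported here. The alternatives tried, from scaling and floors to arrays left out, are given in the closing section.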

Additional observations from a re-analysis of the deposited data

Results flagged for a closer look

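Signal outside the named genes came from probes that the platform gives to several myosin genes at once, so no gene is named from them. A probe shared by the regulatory light chain genes Myl12a and Myl12b had a mean normalized intensity of 586 in the hair cell layer against 683 in the supporting cell layer, where negative control spots had raw medians of 4.15 to 5.36. Its change was 0.22 ± 0.07 and was not called (adjusted p = 0.0699 by limma). A probe shared by the essential light chain genes Myl6, Myl6b and Myl6l had means of 4573 and 4454, overlapping between the layers, with a change of -0.04 ± 0.08 (adjusted p = 0.7). The other shared probe, of Myh6 and Myh7, was detected on no array.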

How the results depend on the processing

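The number of called probes was 11112 and ran from 7181 to 9991 when 1 array was left out, the lone array then being assumed to vary like the other layer. It was 6886 with the scanner software's values and 6654 without a filter on dim probes. The count of myosin genes higher in the hair cell layer was 7, and 6 to 9 with 1 array left out. It was 2 among probes detected on all 4 arrays, which keeps 10 of the 19 genes. The count higher in the supporting cell layer was 2, and 1 to 2 with 1 array left out. It was 1 among probes detected on all 4 arrays and with the replicate number as a block. It was also 1 without the filter, but there neither Myh3 nor Myo9b was called (adjusted p of 0.0553 and 0.089). The median change of unconventional heavy chains ran from -1.13 to -0.19 with 1 array left out, and that of conventional ones from -2.71 to -2.20. The conventional median was -1.10 when the floor was set at the highest detection limit, and it turned to 0.07 without the filter, which adds members near background, and among probes detected on all 4 arrays, where Myh10 alone is left. Myo19 turned to 1.87 without supporting cell layer replicate 1 and was called at -1.98 without replicate 2. With the replicate block 8756 probes were called; same-numbered arrays did not deviate together (r = -0.03), the numbers pair nothing that the labels state, and under the block Myo1f and Myo9b were not called (adjusted p of 0.103 and 0.0697) while Myh9 was (0.0172). Median scaling gave 8700 called probes and moved the median of all tested probes from 0.01 to 0.10, the scanner's values to 0.14. Depth is not known for arrays: signal near background, below about 14 to 28 in normalized units, limits what can be seen.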

Other observations

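Without the filter on dim probes, Myl2 and Myl7, which were not tested otherwise, had an unadjusted p under 0.05 by limma and were not called. For both the supporting cell layer arrays read higher, at 28.4 and 28.3 against 16.1 and 19.8 for Myl2, and 13.7 and 25.3 against 0.805 and 4.23 for Myl7. Neither was detected on a supporting cell layer array.

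Of the 6 cardiac muscle markers with a named probe, Tnni3 was higher in the hair cell layer, at 56.2 and 39.3 against 2.43 and -4, at least 1.71-fold. Ryr2 was called toward the hair cell layer without a usable limit. These were the 2 tested cardiac markers, 100% called toward the hair cell layer beside 37.2% of all tested genes. Mybpc3, Nppa and Nppb were detected on no array.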
